A study of Mus musculus with 6 samples.

Results

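In the authors' list of genomic regions whose cytosine methylation differed between 2 groups of mouse embryos, 314 of the 1884 regions called in CHG context lay in or beside a CpG island. A region was kept when at least 1 of its annotation entries named a CpG island (CGI) or an island shore, when none of its entries named a 3′ UTR, and when it lay off chromosomes X and Y. The whole list held 9707 distinct regions in CG, CHG and CHH context. Of the 409 CHG regions with an island or shore entry, 86 were left out for a 3′ UTR entry and 9 more for lying on X or Y.

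The depressed group was 3 embryos grown from fertilised C57BL/6 eggs that had received small RNA (sRNA) of sperm from mice with stress-induced depression, and the normal group was 3 embryos from such eggs given the sperm sRNA of normal mice. The injected sRNA was at 2 ng/µl in both groups, and both were cultured in M16 and then KSOM medium at 37 °C to embryonic day 4.5, about 108 h after injection. Each embryo gave 1 whole-genome bisulfite library, so inner cell mass and trophectoderm were read together, and nothing in the labels gives the sex of the embryos. The deposited table gives 1 mean methylation level per region for each group and 0 columns per embryo. The depth behind a level is therefore unknown, no spread between embryos can be set beside a difference, and no difference was tested here: "lower" and "higher" below are directions in the authors' list. Intervals are 95% exact binomial (Clopper-Pearson) intervals over regions, which describe the list and not the precision of a level.

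CpG islands are short stretches rich in CG dinucleotides that hold the start sites of most housekeeping and developmental genes and are usually free of CG methylation; their shores are the flanks on either side. CHG stands for a cytosine followed by A, C or T and then G. In mammals methylation outside CG is laid down mainly by the de novo enzymes DNMT3A and DNMT3B, is known above all from oocytes, pluripotent cells and neurons, and has no dedicated maintenance enzyme as it has in plants. In bisulfite sequencing a cytosine that is not converted is read as methylated.

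The bases of 7 regions that share at least 60 bases with a gene's start window, 5 of them across the start and those at Sipa1l1 and Gmcl1 upstream of it, are shown because they let a reader see how dense CHG cytosines are in these islands. They were read from RefSeq start windows of build GRCm38.p6 (mm10), 5′ to 3′ on the strand of the gene. Capitals mark CHG cytosines of both strands, a C for one on the printed strand and a G for one on the other. Of regions with a 5′ UTR entry, 30 bases around the start are printed, from position -15 to 14, where the first transcribed base is 0. The Sipa1l1 bases are chr12:82169838-82169957 on the plus strand, from position -178 to -59, and the Gmcl1 bases are chr6:86733491-86733628 on the minus strand, from -250 to -113. The other 5 are on the minus strand of their chromosomes: Lrrc3b at chr14:15438973-15439002, Zfp292 at chr4:34882934-34882963, Mmd2 at chr5:142608738-142608767, Ube2m at chr7:13037964-13037993 and Arih1 at chr9:59486360-59486389.
Sipa1l1: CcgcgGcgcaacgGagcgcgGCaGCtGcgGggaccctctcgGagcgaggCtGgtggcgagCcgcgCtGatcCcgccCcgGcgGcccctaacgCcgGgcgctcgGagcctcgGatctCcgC
Gmcl1: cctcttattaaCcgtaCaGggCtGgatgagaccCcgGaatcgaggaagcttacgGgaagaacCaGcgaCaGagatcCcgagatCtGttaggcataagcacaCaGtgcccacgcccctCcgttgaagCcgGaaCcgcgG
Lrrc3b: aggcgagtcccctctagtgaCtGagCcgcC
Zfp292: tatcacgtgaccCaGgtgcgtacgcgacgG
Mmd2: GgctCaGgggctcgGggctCcgGaggcaaC
Ube2m: gtagCaGgggcgGggCcgaggatcgCcgag
Arih1: cgcgCcgcgGcCaGcgtCtGCcgGgcCcgc

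The Sipa1l1 stretch covers its whole region and holds 25 CHG cytosines in 120 bases, where the authors' table lists 11. The listed number is thus below the count over both strands. It equals the 11 capital Cs of the printed strand, and whether this holds in other regions was not tested. Over all 32851 RefSeq start windows the median was 12.7 CHG cytosines per 100 bases, against 20.8 in the Sipa1l1 stretch and 15.9 in the Gmcl1 stretch. In the 30-base stretches it was 10 at Zfp292, 13.3 at Lrrc3b, 16.7 at Ube2m, 23.3 at Mmd2 and 30 at Arih1, so 1 of the 7 was below the median of the windows. The stretches are shorter than the windows and richer in G and C. A median of 52.7% of window bases were G or C, against 58.0% to 90% in the 7 stretches. The regions at 6 of these genes were lower in depressed-group embryos. At Sipa1l1, which codes for a GTPase-activating protein for Rap, the CHG level was 0.0540% in depressed-group embryos and 12.4% in normal-group embryos. At Gmcl1 the levels were 0.317% in depressed-group embryos and 46.4% in normal-group embryos. Lrrc3b had 0.0768% in depressed-group embryos and 14.2% in normal-group embryos, and Mmd2 had 0.0847% in depressed-group embryos and 8.25% in normal-group embryos. Ube2m, the conjugating enzyme of the ubiquitin-like protein NEDD8, had 0.911% in depressed-group embryos and 24.3% in normal-group embryos. Arih1, a ubiquitin ligase, had 2.35% in depressed-group embryos and 35% in normal-group embryos. The region at the zinc finger gene Zfp292 went the other way, with 13.4% in depressed-group embryos and 0.360% in normal-group embryos. It was the 1 higher region among the 19 island and shore regions that shared a base with a start window.

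CHG methylation was lower in depressed-group embryos in 262 of the 314 island and shore regions (83.4%; interval 78.9% to 87.4%) and higher in 52 (16.6%; interval 12.6% to 21.1%). Among all listed CHG regions 91% were lower and 8.97% were higher. In most regions the level was low in one group and substantial in the other. In the 262 lower regions the median level was 0.496% in depressed-group embryos and 24.0% in normal-group embryos, with quartiles of 0.105% and 1.10% in depressed-group embryos and of 14.1% and 36.2% in normal-group embryos. In 190 of them the depressed group was under 1%, in 252 it was under 5%, and in 32 the normal group was over 50%. The lower region with the highest depressed level, at the chromatin remodelling gene Arid1a, had 25.5% in depressed-group embryos and 62.1% in normal-group embryos. In the 52 higher regions the median was 20.9% in depressed-group embryos and 0.166% in normal-group embryos. The normal group was under 1% in 46 of these 52, and the highest depressed level was 35.9%. Among the 262 lower regions the highest normal level was 70.8%. In the other listed CHG regions, higher ones reached 74.5% in depressed-group embryos and lower ones 93.8% in normal-group embryos.

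**Figure D1:**
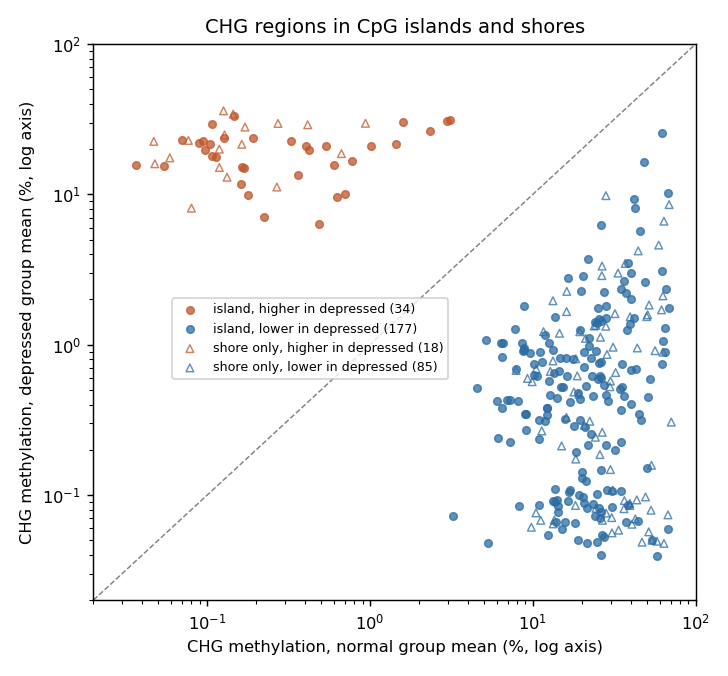
CHG methylation of each of the 314 regions in depressed-group embryos (vertical, percent, log axis) against the normal group (horizontal, percent, log axis), with the 211 regions that have an island entry as filled circles and the 103 shore-only regions as triangles. The 52 regions higher in depressed-group embryos (orange) and the 262 lower ones (blue) form 2 separate clouds on either side of the dashed line of equal levels.

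The 2 clouds also differed in size of region. Lower regions had a median of 13 listed cytosines and 127 bp, and reached 121 cytosines and 2444 bp. Higher regions had a median of 11 cytosines and 103 bp and none had over 28 cytosines or 208 bp. Among the other 1570 listed CHG regions, which include the 95 in islands and shores that the rule left out, the higher ones had medians of 22.3% in depressed-group embryos and 0.202% in normal-group embryos. The lower ones among them had a median of 0.139% in depressed-group embryos and 33.0% in normal-group embryos. Lower island and shore regions were thus above the other lower CHG regions in depressed-group embryos and below them in normal-group embryos.

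The share of higher regions depended on which part of a gene a region touched. Of the 123 regions with a promoter entry, 10 were higher (8.13%; interval 3.97% to 14.4%), and of the 191 without one, 42 were higher (22.0%; interval 16.3% to 28.5%). Of the 80 regions with a 5′ UTR entry 8 were higher (10%). Of the 139 that lay in an exon with neither a promoter nor a 5′ UTR entry 34 were higher (24.5%; interval 17.6% to 32.5%). Put the other way, 19.2% of the higher regions and 43.1% of the lower ones had a promoter entry.

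The distance of the 16.6% in islands and shores from the 8.97% over all listed CHG regions moved with the 3′ UTR part of the rule. Among all listed CHG regions with a 3′ UTR entry, 23 of 841 were higher (2.73%). Among the 729 listed CHG regions that had no 3′ UTR entry and were not among the 314, 94 were higher (12.9%; interval 10.5% to 15.5%), and the 2 intervals overlap. Exonic CHG regions outside islands, shores and 3′ UTRs had 73 of 430 higher (17%). Of the 95 island and shore regions that the rule left out, 5 were higher (5.26%). A direction particular to islands and shores was therefore not shown.

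**Figure D2:**
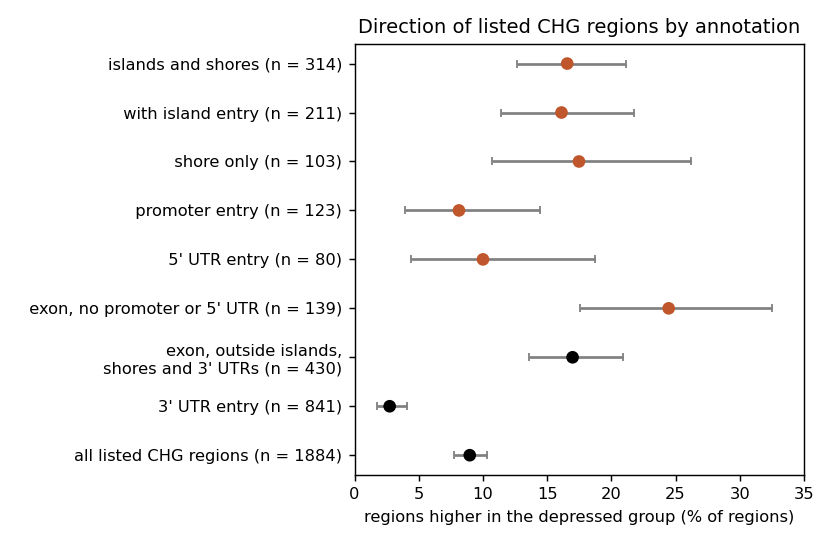
Percentage of regions with the higher mean in depressed-group embryos (horizontal, percent of regions) for classes of the 314 island and shore regions (orange) and for other sets of listed CHG regions (black), with 95% exact binomial intervals as bars. The classes run from 2.73% for all regions with a 3′ UTR entry to 24.5% for island and shore regions in exons without a promoter or 5′ UTR entry.

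Under the rule used, islands and shores had nearly the same share of higher regions. Of the 211 regions with an island entry 34 were higher (16.1%; interval 11.4% to 21.8%), and of the 103 with a shore entry alone 18 were higher (17.5%; interval 10.7% to 26.2%). With 3′ UTR regions kept, the shares were 16.7% for regions with an island entry and 10.1% for shores alone. What differed along this axis was the level. In the lower regions the median normal level was 20.4% in the 135 that touched an island alone, 26.2% in the 42 that crossed an island's edge, and 28.5% in the 85 in shores alone. The depressed medians of these 3 sets were 0.450%, 0.629% and 0.525%. Across the 262 lower regions the normal level was lower where listed cytosines were denser, with Pearson r = -0.42 and Spearman rho = -0.51 between the level and cytosines per bp. That correlation is across regions, which share their libraries and differ in base composition, and is a description.

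The 211 island regions fell in 195 distinct islands with a median length of 1002 bp. In 185 islands there was 1 region, and the regions covered a median of 12.9% of their island. Whole islands were thus seldom listed, and 182 of the 211 regions lay wholly inside. No island held regions of both directions, which just the 9 islands with 2 regions and the 1 with more could have done. By chromosome, lower regions outnumbered higher ones on 19 of 19 autosomes, each of which had 7 to 31 of the 314 regions, and higher regions were found on 17.

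Regions that could be placed lay mostly downstream of their gene's start. They lay nearer to it than other CHG regions, which a rule that picks islands and shores favours. The midpoint could be placed against a RefSeq start of a listed gene for 207 regions. Of these 192 (92.8%) were downstream of it, at a median of 734 bp over all 207 with quartiles of 256 and 2552 bp. Within 1 kb of the start there were 103 downstream regions and 5 upstream ones, and all 32 higher regions that could be placed were downstream. Among the 1131 other autosomal CHG regions that could be placed, 94.8% were downstream too, but 3.18% were within 1000 bp of the start, against 52.2% here. Measured instead to the nearest start of any gene, a rule tried first and set aside after its values were seen because the table of starts has gaps, 74.2% of 298 regions were downstream and 38.6% were within 1000 bp. Exon entries were common, with 291 of 314 regions (92.7%) against 81.5% of other CHG regions. Repeat entries were few, with 4 of 314 (1.27%) against 12.8%.

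**Figure D3:**
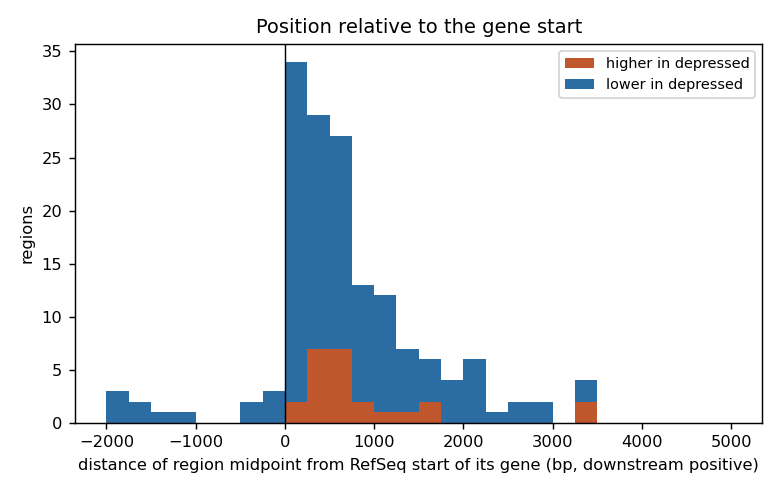
Number of island and shore regions by distance of their midpoint from the RefSeq start of the listed gene (horizontal, bp in bins of 250, downstream positive), lower regions in blue stacked on higher ones in orange. Of the 207 regions that could be placed, 159 fall in the range drawn, and the fullest bin, with 34, is the first one after the start.

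Where a listed region of another context overlapped, its difference had the direction of the CHG difference. A listed CHH region (cytosine followed by A, C or T at both next positions) overlapped 123 of the 314 regions (39.2%) by at least 1 base, against 44.9% of all listed CHG regions. These were 122 of 262 lower regions (46.6%; interval 40.4% to 52.8%) and 1 of 52 higher ones (1.92%; interval 0.0487% to 10.3%). In all 123 the CHH difference had the same direction as the CHG difference. Of these 123 regions 122 were lower, and the share of lower regions among all listed CHH regions was not counted here. How much of the agreement and of the split follows from that share was therefore not tested. The same split was present in the other CHG regions, where 49.3% of lower and 5.13% of higher ones overlapped a CHH region. In the 122 lower regions the median CHH level was 0.771% in depressed-group embryos and 27.9% in normal-group embryos, beside CHG medians of 0.610% in depressed-group embryos and 26.7% in normal-group embryos. The CHG and CHH levels of the normal group followed each other over these 122 regions, with Pearson r = 0.87 and Spearman rho = 0.90; these share libraries and reads, and several CHG regions can overlap 1 CHH region, since the 123 touched 109. Lower regions with a CHH overlap were longer, at a median of 170 bp against 101 bp without one, and had more cytosines, at 16.5 against 10.5, and the part of size in the split was not tested. The 1 higher region with a CHH overlap was at Repin1, a zinc finger gene, with 11.2% CHG in depressed-group embryos and 0.268% in normal-group embryos, and with 17.3% CHH in depressed-group embryos and 0.211% in normal-group embryos.

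**Figure D4:**
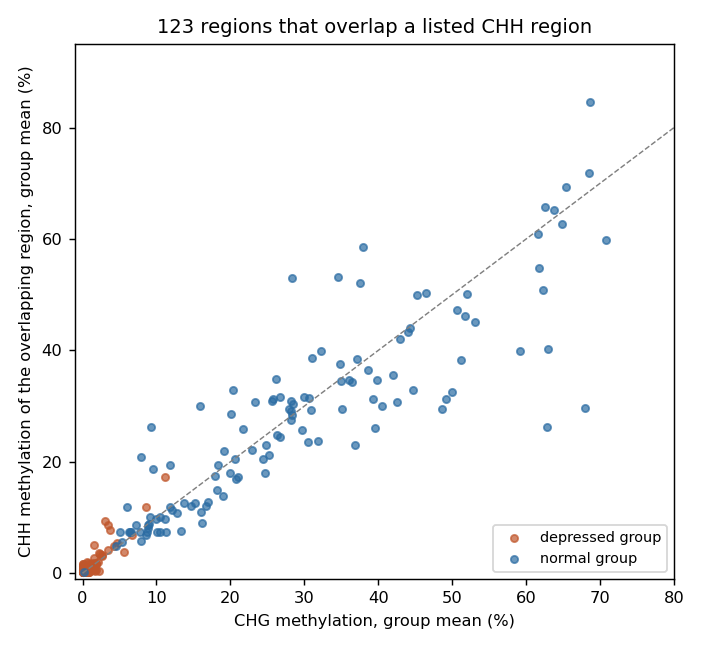
CHH methylation of the overlapping region (vertical, percent) against CHG methylation (horizontal, percent) for the 123 regions that overlap a listed CHH region, once with the depressed group's means (orange) and once with the normal group's (blue). The depressed means gather near 0 and the normal means spread along the dashed line of equal levels, apart from Repin1, where the depressed group has 17.3% CHH and 11.2% CHG.

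A listed CG region overlapped 16 of the 314 regions (5.10%; interval 2.94% to 8.14%), against 1.91% of all listed CHG regions. The share was 2.55% among regions with a difference of at least 10 percentage points and 1.94% in shores alone, near the share over all CHG regions. All 16 were lower in both contexts, and the share of lower regions among all listed CG regions was not counted here. The median CG level was 1.95% in depressed-group embryos and 22.6% in normal-group embryos, beside CHG medians of 0.564% in depressed-group embryos and 10.3% in normal-group embryos. In 15 of the 16 the CG level of the normal group was above its CHG level. The 16 touched 12 distinct CG regions, since 5 lay on 1 long CG region on chromosome 17, and without that island 11 of 306 regions (3.59%) overlapped a CG region. At Actb, the cytoplasmic beta-actin gene, all 3 contexts were listed at one shore. The CG level there was 4.17% in depressed-group embryos and 64.7% in normal-group embryos, the CHG level 1.58% in depressed-group embryos and 50.6% in normal-group embryos, and the CHH level 2.64% in depressed-group embryos and 47.3% in normal-group embryos. At Nisch, which codes for the imidazoline-receptor-like protein nischarin, the CG level was 6.67% in depressed-group embryos and 61.2% in normal-group embryos, and the CHG level was 1.51% in depressed-group embryos and 42.0% in normal-group embryos.

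That island on chromosome 17, chr17:39843168-39848823, stood apart by its count. It held 8 of the 314 regions, while no other island held over 2. RefSeq places Rn18s-rs5, a sequence related to the 18S ribosomal RNA gene, inside it, and it was singled out after its values were seen. The 8 CHG regions had 0.380% to 1.08% in depressed-group embryos and 5.13% to 11.3% in normal-group embryos, so their normal levels were all under the 24.0% median of lower regions. The same island carried 2 CG regions, with 1.95% and 1.77% in depressed-group embryos and 15.3% and 18.6% in normal-group embryos. It also carried 2 CHH regions, with 0.823% and 0.647% in depressed-group embryos and 7.38% and 9.67% in normal-group embryos. Ribosomal RNA genes are present in many near-identical copies, so which copies the reads came from is uncertain.

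The regions were listed with 309 gene names, 248 with a lower region and 61 with a higher one, and 0 genes had both. Just the 18 genes with 2 regions and the 1 gene with more could have had both. RefSeq matched 299 of the names, and 27 regions had no gene name. Of 20665 autosomal protein-coding genes in RefSeq, 1.16% were listed with a lower island or shore region and 0.276% with a higher one. Bsn, which codes for the presynaptic scaffold protein bassoon, had 4 regions and no other gene over 2. Its region at the start, chr9:108190240-108190350, had 0.376% in depressed-group embryos and 12.1% in normal-group embryos. The other 3 lay in exons at the far end of the gene, over 75 kb downstream. There the region at chr9:108114438-108114590 had 1.61% in depressed-group embryos and 31.9% in normal-group embryos, and the one at chr9:108107636-108107760 had 0.0694% in depressed-group embryos and 42.6% in normal-group embryos. The last, chr9:108106366-108106570, had 0.458% in depressed-group embryos and 23.4% in normal-group embryos and overlapped a CG region with 5.99% in depressed-group embryos and 47.6% in normal-group embryos. Adcy5, an adenylyl cyclase gene, had 2 regions in the 5′ UTR of 1 island, with 0.214% and 0.147% in depressed-group embryos and 28.3% and 26.4% in normal-group embryos. The longest region, 2444 bp at Shroom3, a regulator of apical constriction, had just 20 listed cytosines and 0.0482% in depressed-group embryos against 21.4% in normal-group embryos.

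Of the 10 gene lists, the one of neuronal genes, also the largest, had the most lower regions. Lower regions were also found at 12.5% of the reference genes and 10.3% of the Hox genes. The lists were chosen with earlier results of these data known, so their shares are descriptions. Of 140 genes of a list of neuronal signalling and synapse genes, 0 had a higher region, near the 0.276% of all protein-coding genes. Beside 1.16% of all protein-coding genes, 22 of the 140 (15.7%) had a lower region. Their 27 regions had medians of 0.346% in depressed-group embryos and 26.6% in normal-group embryos, next to medians of 0.496% in depressed-group embryos and 24.0% in normal-group embryos over all lower regions, and 17 of the 27 overlapped a listed CHH region. Exons held most of them, and 3 of the 27 had a promoter entry. Map1a, a microtubule-associated protein, had the highest normal level of all 314 regions, in a shore at chr2:121305737-121306048, with 0.306% in depressed-group embryos and 70.8% in normal-group embryos. At Grm2, a glutamate receptor gene, a shore region had 0.0477% in depressed-group embryos and 63.8% in normal-group embryos. Vgf, a secreted neuropeptide precursor, had an island region of 722 bp at chr5:137031888-137032609 with 0.346% in depressed-group embryos and 44.7% in normal-group embryos. A second Vgf region in that island had 0.0974% in depressed-group embryos and 20.4% in normal-group embryos.

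The neurofilament genes Nefm, Nefh and Nefl were all listed. The Nefm region, chr14:68123907-68124650, had 75 listed cytosines, with levels of 0.343% in depressed-group embryos and 12.1% in normal-group embryos. CG methylation there was 1.53% in depressed-group embryos and 26.7% in normal-group embryos. Cdk5r2, an activator of the kinase CDK5, had 0.450% in depressed-group embryos and 51.2% in normal-group embryos at chr1:74855617-74855960. Its relative Cdk5r1 had 2.99% in depressed-group embryos and 40.1% in normal-group embryos. Shank3, a postsynaptic scaffold, had 2 shore regions, with 0.596% and 2.11% in depressed-group embryos and 9.26% and 62.9% in normal-group embryos. Ntrk2, the receptor of brain-derived neurotrophic factor, had 0.0838% in depressed-group embryos and 30.4% in normal-group embryos. Genes of channels and adhesion proteins were also among the higher regions, though outside that list. Kcnk12, a potassium channel, had 11.8% in depressed-group embryos and 0.162% in normal-group embryos. Cacna2d2, a calcium channel subunit, had 33.1% in depressed-group embryos and 0.146% in normal-group embryos. Protocadherins were found in both directions. Pcdh10 was lower, with 0.0738% in depressed-group embryos and 67.5% in normal-group embryos. Pcdh1 was higher, with 29.7% in depressed-group embryos and 0.937% in normal-group embryos, and 2 regions in the Pcdha cluster were higher, with 15.5% and 18.7% in depressed-group embryos and 0.0543% and 0.667% in normal-group embryos. The Pcdha regions are each listed with several genes of the cluster, whose transcripts overlap one another, so they cannot be assigned to 1 gene.

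Homeobox and other developmental regulators, whose islands are classic targets of Polycomb repression, were divided between the directions. Of 39 Hox genes 4 had a lower region (10.3%) and 2 a higher one (5.13%), beside 1.16% and 0.276% of all protein-coding genes. The 4 lower ones were in islands and had low normal levels. Hoxa11 had 0.879% in depressed-group embryos and 9.59% in normal-group embryos, with 42 cytosines at chr6:52245322-52245633. Hoxa13 had 0.466% in depressed-group embryos and 12.7% in normal-group embryos. Hoxb8 had 0.653% in depressed-group embryos and 13.5% in normal-group embryos, and Hoxc10 had 0.315% in depressed-group embryos and 10.9% in normal-group embryos. All 4 normal levels were under the lower quartile of 14.1% of the lower regions. The 2 higher Hox regions were at Hoxd10, with 20.9% in depressed-group embryos and 1.01% in normal-group embryos, and at Hoxc13, with 21.8% in depressed-group embryos and 1.45% in normal-group embryos.

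Of 121 homeobox and paired-box genes outside the Hox clusters 5 had a lower region (4.13%) and 4 a higher one (3.31%). Over all protein-coding genes the shares were 1.16% and 0.276%. Emx2, a regulator of the cerebral cortex and urogenital tract, had 0.225% in depressed-group embryos and 34.8% in normal-group embryos. Dlx1, a forebrain interneuron factor, had 3.33% in depressed-group embryos and 26.6% in normal-group embryos, and Pou3f2 had 0.0919% in depressed-group embryos and 36.5% in normal-group embryos. Among the higher ones were Cdx2, Pou4f2 and Nkx2-3. Pou4f2, a factor of retinal ganglion cells, had 23.1% in depressed-group embryos and 0.0698% in normal-group embryos. Nkx2-3, which patterns gut and spleen vessels, had 16% in depressed-group embryos and 0.0477% in normal-group embryos.

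Of 131 other developmental transcription factors 9 had a lower region (6.87%) and 3 a higher one (2.29%), beside 1.16% and 0.276% of all protein-coding genes. The 9 rest on 8 regions, since Zic1 and Zic4 were listed with the same one. Sox2, Bhlhe22, Zic2 and Foxd4 were among the lower ones. Foxd4 had 1.76% in depressed-group embryos and 68.6% in normal-group embryos. Zic2 had 1.53% in depressed-group embryos and 39.5% in normal-group embryos, while Bhlhe22 had 0.0725% in depressed-group embryos and 23.9% in normal-group embryos. The higher ones were Nr2f1, Foxd2 and Scrt1. Nr2f1, an orphan nuclear receptor, had 19.6% in depressed-group embryos and 0.421% in normal-group embryos, whereas its relative Nr2f2 was lower, with 0.605% in depressed-group embryos and 26.3% in normal-group embryos. Foxd2 had 9.60% in depressed-group embryos and 0.623% in normal-group embryos, whereas Foxd1 had 0.819% in depressed-group embryos and 22.7% in normal-group embryos. Scrt1 had 15.7% in depressed-group embryos and 0.596% in normal-group embryos. Of 96 genes of secreted developmental signals and their receptors 1 had a lower region (1.04%) and 2 a higher one (2.08%). The lower share was near the 1.16% of all protein-coding genes. The higher share rests on 2 genes, beside 0.276%. Nog, the BMP antagonist noggin, had 0.746% in depressed-group embryos and 35.1% in normal-group embryos. Ihh, a hedgehog ligand, had 17.9% in depressed-group embryos and 0.107% in normal-group embryos, and Sfrp5, a Wnt inhibitor, had 10.02% in depressed-group embryos and 0.698% in normal-group embryos.

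Of 41 blastocyst lineage genes 2 were listed, 1 (2.44%) in each direction, beside 1.16% lower and 0.276% higher over all protein-coding genes. Sox2, a factor of the inner cell mass and epiblast, had a lower island region at chr3:34651090-34651278. It had a promoter and an exon entry, and its midpoint was 1189 bp downstream of the start. The CHG level there was 0.749% in depressed-group embryos and 62.3% in normal-group embryos. CHH levels there were 0.266% in depressed-group embryos and 50.9% in normal-group embryos. Cdx2, which marks trophectoderm, had a higher region in its 5′ UTR at chr5:147306875-147307082, with 15.6% in depressed-group embryos and 0.0364% in normal-group embryos. No CHH or CG region was listed over the Cdx2 region. The proportion of trophectoderm and inner cell mass cells in each library is not known from these data.

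Ubiquitously expressed genes and imprinted genes had lower regions alone. With 0.276% of all protein-coding genes listed with a higher region, a count of 0 in these lists is near the background. Of 32 reference genes 4 (12.5%) were listed, Actb, Eef2, Ubb and Hsp90aa1, all in shores with a promoter entry. Ubb, a polyubiquitin gene, had 3.47% in depressed-group embryos and 36.9% in normal-group embryos, and Hsp90aa1, a chaperone gene, had 0.242% in depressed-group embryos and 24.2% in normal-group embryos. The region at the elongation factor gene Eef2 had 0.0679% in depressed-group embryos and 11.2% in normal-group embryos. It was also listed with Dapk3, and which of these genes its promoter entry belongs to was not checked. Of 61 imprinted genes 3 (4.92%) were listed, beside 1.16% of all protein-coding genes with a lower region. Ndn had 0.420% in depressed-group embryos and 5.99% in normal-group embryos, Commd1 had 0.0682% in depressed-group embryos and 13.5% in normal-group embryos, and Trappc9 had 0.892% in depressed-group embryos and 63.0% in normal-group embryos. None of 34 germline genes with island promoters that are methylated in somatic cells, and none of 57 genes of DNA methylation and island chromatin, was listed with an island or shore CHG region in either direction. In lists of that size, the 1.16% and 0.276% over all protein-coding genes come to less than 1 gene each, so these counts of 0 are near the background.

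The remaining named regions filled in the range of both directions. In the lower direction Trim8, a ubiquitin ligase, had the region with the largest absolute statistic of the island regions with a gene symbol, 61 cytosines at chr19:46502433-46502772, with 1.49% in depressed-group embryos and 28.2% in normal-group embryos. Mrfap1 had 0.590% in depressed-group embryos and 25.2% in normal-group embryos, and Atp1b2, a sodium pump subunit, had 0.366% in depressed-group embryos and 34.9% in normal-group embryos across its start. Jun, a transcription factor of the AP-1 complex, had 0.0594% in depressed-group embryos and 68.0% in normal-group embryos. Foxo3, a forkhead factor of insulin signalling, had 0.0793% in depressed-group embryos and 53.1% in normal-group embryos in a shore. Epc1 had 2 regions with 0.272% and 0.926% in depressed-group embryos and 9.05% and 8.84% in normal-group embryos.

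Of the named higher regions, those with the largest differences were at Itpr3 and F2, in shores, and at Cacna2d2, in an island. Itpr3, an inositol trisphosphate receptor, had 35.9% in depressed-group embryos and 0.126% in normal-group embryos at chr17:27116655-27116767. F2, the prothrombin gene, had 34.2% in depressed-group embryos and 0.144% in normal-group embryos. Orai3, a store-operated calcium channel, had 30.9% in depressed-group embryos and 2.97% in normal-group embryos in its 5′ UTR. Tcf12, a basic helix-loop-helix factor, had 19.96% in depressed-group embryos and 0.119% in normal-group embryos. Tlcd1 had 13% in depressed-group embryos and 0.132% in normal-group embryos. The lowest depressed level of a higher region was at Srrm4, a neuronal splicing factor, with 6.30% in depressed-group embryos and 0.483% in normal-group embryos. Rbm22, a spliceosome component, had 9.85% in depressed-group embryos and 0.178% in normal-group embryos.

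**Figure D5:**
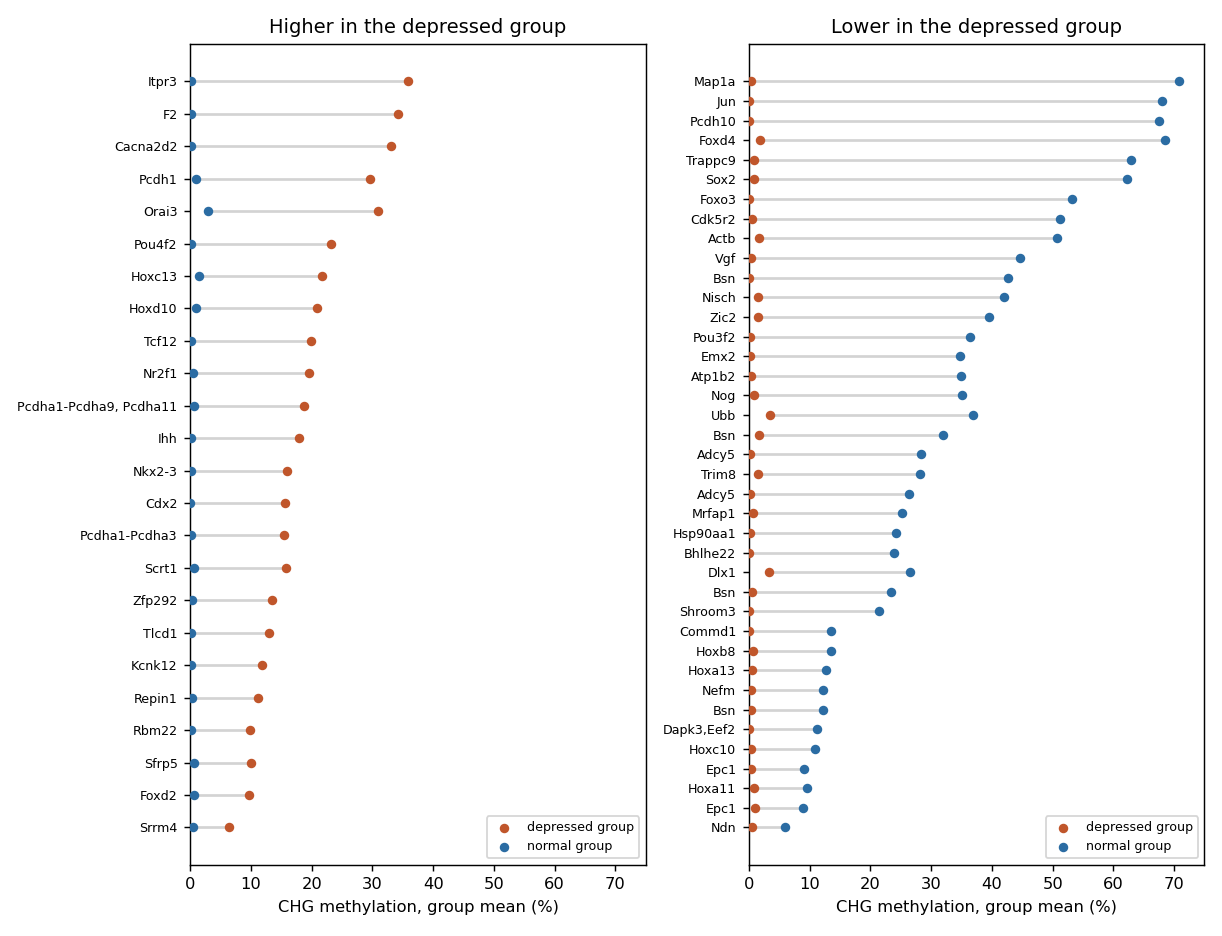
CHG methylation (horizontal, percent) of the named regions, 24 higher in depressed-group embryos (left) and 39 lower (right), with the depressed group's mean in orange and the normal group's in blue, joined by a line. Higher regions end between 6.30% and 35.9% in depressed-group embryos, and lower regions between 5.99% and 70.8% in normal-group embryos.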

How the data were processed

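The 6 libraries, each of 1 embryo, were bisulfite converted and randomly primed, per the labels' protocols. The submitters' processing notes name SAMtools, Bismark, Trim Galore 0.3.3 and the genome build mm10. Not given in the sources used here are the region caller, its thresholds and coverage filter, the conversion rate, and how the embryos of a group were averaged. The authors deposited 1 table of 18732 annotation entries. Per the file headers it gives each group's mean methylation as a fraction, multiplied to percent here. The deposited difference (depressed minus normal) and region statistic were read as scores.

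Entries were collapsed to distinct regions with Python 3.11.15, pandas 2.3.3, NumPy 2.4.6 and SciPy 1.17.1, in code checked on simulated data. Overlap meant at least 1 shared base. Genes over 10 kb from a region were passed over. The members, the 10 gene lists and the rules were chosen with earlier results of these data known. Per direction, named regions were the 8 in islands and 4 in shores alone with the largest absolute statistic, the next 3 by difference, those of the 3 genes with most regions (ties in alphabetical order), the longest, and up to 4 per list. Of these, 3 genes are not reported here. A few more, such as Arid1a, Grm2, Cdk5r1, Shank3, Ntrk2, Nr2f2, Foxd1 and the Rn18s-rs5 island, were named after their values were seen. The start distances, island counts, sequences and the comparison without 3′ UTR entries were also added then. RefSeq tables for GRCm38.p6 gave gene spans and start windows, which run from 250 bases before a start to 50 after it.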

Additional observations from a re-analysis of the deposited data

How the results depend on the processing

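The 12 main values were recomputed under 31 alternatives, giving 358 values, of which 348 stayed within the 95% interval of the reported value (or, for the number of genes, within 1.5 times). The alternatives were other minimum differences, cytosine numbers, statistics, annotation classes and overlaps, 3′ UTR regions or sex chromosomes kept, repeats or neighbours removed, and each autosome left out in turn. The 228 values without 1 chromosome were all within. A chromosome held at most 31 of the 314 regions, so leaving 1 out could move a value little. Keeping primary autosomes alone left the same 314 regions and could change nothing. The median normal level of lower regions was 26.0% with a difference of at least 10 points, 20.6% with at least 10 cytosines and 28.5% in shores alone. The share overlapping a CHH region was 47.2% with at least 10 cytosines and 45.6% in shores alone. The share overlapping a CG region was 2.55% with a difference of at least 10 points and 1.94% in shores alone. With 3′ UTR regions kept, 10.1% of shore-only regions were higher. Genes numbered 200 in islands and 116 in shores alone, sets that hold fewer regions. The other causes were not tested. The Rn18s-rs5 island, left out as an alternative chosen after seeing the data, moved no value beyond its interval.

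No paired analysis was possible because the table gives group means alone, and leaving out each embryo was not run for the same reason. Depth is unknown, so no limit of detection can be given for levels near 0.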
